A study of Mus musculus with 8 samples.

Results

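Ldb3, Sorbs2 and Fhl2 encode 3 proteins of the cardiac Z-disc, and their transcripts were read here for crosslinks to SRSF3 in mouse cardiomyocytes. The genes were chosen from earlier values of these same libraries and were defined as strand-specific intervals of the mouse genome build mm9. Ldb3 was the minus strand of chromosome 14 from 35335001 to 35405000, Sorbs2 the plus strand of chromosome 8 from 46590001 to 46920000, and Fhl2 the minus strand of chromosome 1 from 43178001 to 43260000. Of the 268345 strand-specific windows of 10 kb that held a crosslink position, 49 overlapped the 3 intervals by at least 5 kb. The intervals held 5506 cDNAs, or 0.675%, of replicate 1 and 15138 cDNAs, or 0.672%, of replicate 2. Their levels are therefore a description and were not tested.

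The study holds 8 samples. The crosslinking group consists of 2 replicates of cardiomyocytes from C57BL/6 pups at P0-1 that were given 15 µg of SRSF3-GFP modRNA with 21 µL of Lipofectamine 2000. After 48 h they received 100 mJ of UV light at 254 nm, and the RNA bound to SRSF3-GFP, trimmed to 80 to 200 nt with RNase I, was recovered with a goat antibody to GFP. The tagged protein was thus supplied by transfection, on top of the cells' own SRSF3. The other 6 samples are adult C57BL/6 hearts with the genotypes SRSF3flox/flox;alphaMHC-CreERT2 (3) and alphaMHC-CreERT2 (3), taken 5 days after the last of 3 doses of 4-hydroxytamoxifen (1 mg each); they are not analysed here. The alphaMHC promoter drives the Cre of both heart groups in cardiomyocytes, and both groups received tamoxifen. The group used here has no untransfected sample, no sample without the antibody and no measure of RNA abundance, so abundant RNA and frequent binding cannot be told apart. The labelled cell type was not checked against marker genes, because no annotation of mm9 was used here.

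The Z-disc anchors actin filaments from neighbouring sarcomeres and passes force along the muscle fibre. Ldb3, also called ZASP or Cypher, is a PDZ and LIM domain protein that binds alpha-actinin, and its short isoforms lack the LIM domains. Sorbs2, also called ArgBP2, is an adaptor with SH3 domains that links signalling proteins to the actin cytoskeleton and is found at the Z-disc of cardiomyocytes. Fhl2 is a protein built from LIM domains that is abundant in heart, binds titin and other sarcomere proteins and can act as a transcriptional cofactor. SRSF3 is a small serine and arginine-rich RNA-binding protein that takes part in splicing, polyadenylation and export of mRNA. In iCLIP, reverse transcription often stops at the crosslinked nucleotide, so each cDNA marks a position at the resolution of 1 nucleotide.

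The start regions of the genes are shown because the coverage described further on is set beside distances between annotated starts. Along each gene the coverage is measured from its own 5′ edge, not from these starts. The distances come from the annotation GENCODE M21, while the regions printed here belong to RefSeq starts. Starts were not matched between these annotations, so a printed start need not be the one a distance refers to. Each sequence is the RefSeq strand from 250 bases upstream of a start to the last base before it, in the build GRCm38.p6, and all 3 genes matched. Ldb3 is chr14:34588682-34588931 on the minus strand. RefSeq has a second Ldb3 region, chr14:34588608-34588857, which overlaps the first and is not printed. The Sorbs2 regions are chr8:45507538-45507787, chr8:45627501-45627750 and chr8:45661743-45661992 on the plus strand. The Fhl2 regions are chr1:43196762-43197011 and chr1:43163962-43164211 on the minus strand. Capitals mark matches to 5 motifs of muscle and core promoters, searched on both strands: the TATA box as TATAAA, the CArG box, the MCAT element as CATTCC, the MEF2 box and a GATA site as AGATAA.
Ldb3: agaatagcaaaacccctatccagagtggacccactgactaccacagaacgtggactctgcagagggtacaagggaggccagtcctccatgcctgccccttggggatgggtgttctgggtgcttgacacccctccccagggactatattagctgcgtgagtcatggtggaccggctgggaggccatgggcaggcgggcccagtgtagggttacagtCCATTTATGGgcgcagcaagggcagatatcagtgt
Sorbs2 start 1: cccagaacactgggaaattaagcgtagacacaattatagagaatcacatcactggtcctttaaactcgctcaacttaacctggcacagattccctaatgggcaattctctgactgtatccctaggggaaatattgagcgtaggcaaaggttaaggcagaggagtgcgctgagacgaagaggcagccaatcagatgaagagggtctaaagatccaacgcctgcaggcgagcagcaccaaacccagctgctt
Sorbs2 start 2: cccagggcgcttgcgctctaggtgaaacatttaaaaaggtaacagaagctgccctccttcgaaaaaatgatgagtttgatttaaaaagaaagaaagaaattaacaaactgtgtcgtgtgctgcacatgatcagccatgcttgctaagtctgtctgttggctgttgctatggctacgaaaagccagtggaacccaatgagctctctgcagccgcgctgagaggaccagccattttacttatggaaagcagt
Sorbs2 start 3: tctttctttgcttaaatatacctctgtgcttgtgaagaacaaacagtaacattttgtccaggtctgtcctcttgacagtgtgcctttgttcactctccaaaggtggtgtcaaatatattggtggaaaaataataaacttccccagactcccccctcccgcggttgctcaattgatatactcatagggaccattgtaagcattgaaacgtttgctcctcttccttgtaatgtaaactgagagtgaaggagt
Fhl2 start 1: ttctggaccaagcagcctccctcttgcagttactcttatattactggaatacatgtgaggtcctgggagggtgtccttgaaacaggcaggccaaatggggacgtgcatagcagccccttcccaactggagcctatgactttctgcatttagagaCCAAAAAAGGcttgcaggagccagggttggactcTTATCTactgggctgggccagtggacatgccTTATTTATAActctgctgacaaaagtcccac
Fhl2 start 2: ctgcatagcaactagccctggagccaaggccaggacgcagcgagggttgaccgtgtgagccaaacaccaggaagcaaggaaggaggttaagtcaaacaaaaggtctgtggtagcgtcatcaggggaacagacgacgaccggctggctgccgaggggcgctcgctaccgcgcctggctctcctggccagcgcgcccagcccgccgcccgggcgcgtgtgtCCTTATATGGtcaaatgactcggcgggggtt
The printed Ldb3 region held a CArG box 35 bases upstream of its start, and the overlapping region held one 109 bases upstream of its own. The first Fhl2 region held TATAAA on the opposite strand at 28 bases upstream, printed as TTTATA, which overlapped a MEF2 box at 31. It also held AGATAA on the opposite strand at 62, printed as TTATCT, and a CArG box at 96. The second Fhl2 region held a CArG box at 31 bases upstream. No Sorbs2 region held any of the 5 motifs. Over 32817 RefSeq promoters of the same length, 12.4% held the TATA box, 12.6% the MCAT element, 9.99% the GATA site, 1.47% a CArG box and 2.92% a MEF2 box. The motifs were chosen after the sequences were seen and the matches are a description of letters.

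Replicate 1 held 815414 cDNAs at 769652 positions and replicate 2 held 2253688 cDNAs at 2093525 positions, so replicate 2 was 2.76 times as deep. Counts were divided by these totals and are given per 1000000 cDNAs (CPM), where a count of 0 allows up to 3.68 CPM in replicate 1 and 1.33 CPM in replicate 2, taking 3 cDNAs as the limit. A merged track of 4207555 cDNAs held in addition 1138453 cDNAs of 3 other libraries, which carry no sample labels; they are called the other libraries here and are not a further replicate. Both replicate tracks carry the same library identifier, and the labels do not say that the cells came from separate cultures. Intervals and p-values below cover counting error only, and the spread between the replicates may be technical.

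Ldb3 had the densest crosslinks of the 3 genes. Its interval held 1552 cDNAs in replicate 1 (1903 CPM, exact 95% Poisson interval 1810 to 2000) and 4076 cDNAs in replicate 2 (1809 CPM, 1753 to 1865). Per kb of the interval this was 26.5 ± 0.957 CPM (SD, n = 2). Fhl2 held 1319 cDNAs in replicate 1 (1618 CPM, 1531 to 1707) and 3547 in replicate 2 (1574 CPM, 1522 to 1627), or 19.5 ± 0.377 CPM per kb (SD, n = 2). Sorbs2 held the most cDNAs, 2635 in replicate 1 (3231 CPM, 3109 to 3357) and 7515 in replicate 2 (3335 CPM, 3260 to 3411). Spread over its longer interval of 330 kb these came to 9.95 ± 0.221 CPM per kb (SD, n = 2). The order per kb was Ldb3, Fhl2, Sorbs2 in each replicate, and the intervals of neighbouring genes did not overlap. With each interval cut to the middle 95% of its cDNAs the order held at 29.9, 21.3 and 17.0 CPM per kb, where the value of Sorbs2 rose most, because its interval starts with a long stretch that was almost empty.

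**Figure D1:**
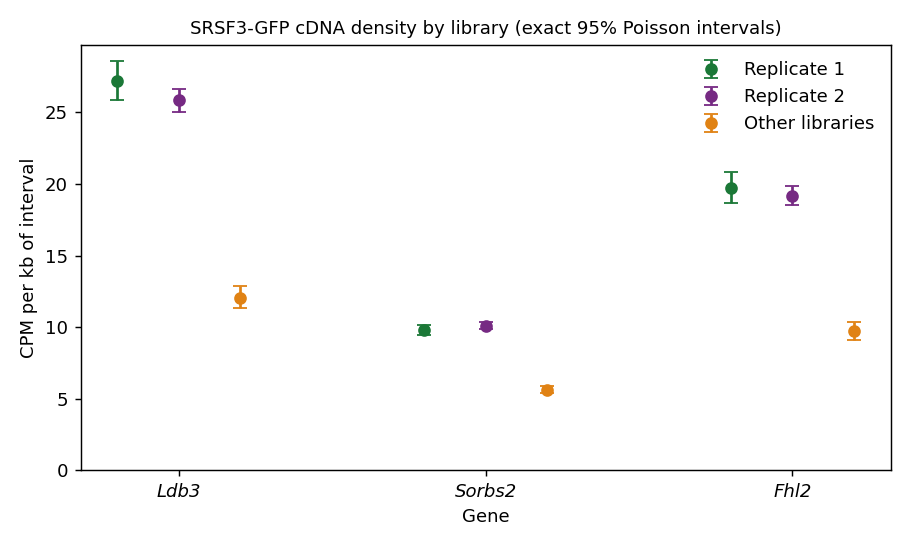
SRSF3-GFP cDNAs per kb of each gene interval, in CPM per kb, for replicate 1, replicate 2 and the other libraries of the merged track; points are single libraries or sums and bars are exact 95% Poisson intervals. The 2 replicates lie close together at 27.2 and 25.8 for Ldb3, 9.79 and 10.1 for Sorbs2 and 19.7 and 19.2 for Fhl2, with the other libraries at 12.1, 5.62 and 9.72.

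The replicates gave nearly the same level for each gene. Replicate 2 over replicate 1 was -0.07 on the log2 scale for Ldb3 (95% interval -0.16 to 0.01), 0.05 for Sorbs2 (-0.02 to 0.11) and -0.04 for Fhl2 (-0.13 to 0.05), and all 3 intervals contain 0. In 10 kb windows, the cDNAs of the replicates were set against their totals with a two-sided exact binomial test. Adjusted by Benjamini-Hochberg over the 13920 windows of the genome with at least 50 cDNAs, it called 13 windows at a 5% false discovery rate, or 0.0934%. Of the tested windows, 36 overlapped the 3 genes by at least 5 kb (7 in Ldb3, 21 in Sorbs2, 8 in Fhl2). Of these 36, 0 were called and 3 had an unadjusted p under 0.05, beside 775 of all 13920 windows. Among the 36 windows, the lowest p belonged to the Ldb3 window from 35340001, near the 3′ end of the gene. It held 136 cDNAs in replicate 1 and 270 in replicate 2. Its log2 difference was -0.48 in the exact binomial test, with p = 0.00197 and an adjusted p of 0.450.

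Signal on the opposite strand was low in the same libraries. Whether it is background was not tested for any of the 3 genes. GENCODE M21 holds Sorbs2os, Gm16351 and shorter genes on the strand opposite Sorbs2, and Gm8210, a gene of 483 nt, opposite Fhl2. Whether opposite-strand cDNAs lie within any of these genes was not examined. The plus-strand cDNAs of Fhl2 gathered at its 5′ edge and went on beyond it. For Ldb3 it was 3 cDNAs in replicate 1 and 13 in replicate 2, or 0.193% and 0.318% of the cDNAs of both strands. For Sorbs2 it was 4 and 33 cDNAs, or 0.152% and 0.437%. For Fhl2 it was 18 and 47 cDNAs, or 1.35% and 1.31%. Signal on the gene strand was also low beside the intervals. The 10 kb upstream of each interval held 0 cDNAs in both replicates for all 3 genes, where 10 kb inside held on average 222 and 582 for Ldb3, 79.8 and 228 for Sorbs2, and 161 and 433 for Fhl2. The 10 kb downstream held 1 and 2 cDNAs for Ldb3, 1 and 2 for Sorbs2, and 15 and 40 for Fhl2, so of the 6 flanks the one past the Fhl2 3′ end was the fullest.

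The covered stretch of each gene was then measured along its strand and set against the length of the gene in GENCODE M21 on GRCm38. Lengths and distances were compared and no coordinate was carried from one build to the other. A stretch ended where 3 consecutive bins of 1 kb of the merged track fell below 0.25 of the median bin, a rule chosen after the tracks were seen. Ldb3 was covered from 35401869 down to 35339212, a length of 62658 nt beside 62080 nt in the annotation. Fhl2 was covered from 43253869 down to 43177135, just past the end of its interval, a length of 76735 nt beside 73911 nt from the first annotated start to the end. With 0.5 of the median bin as the limit, Ldb3 shortened to 46840 nt and Fhl2 to 68839 nt, both by loss of bins at the 3′ end. With 0.1, Ldb3 reached 63695 nt and Fhl2 83727 nt, where the Fhl2 stretch ran on to 43170143, past its interval and further from the annotated length. The labels of these intervals were checked by strand and length only.

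Sorbs2 was covered over less than its annotated length. Over Sorbs2 the annotation also holds antisense genes, of which Sorbs2os and Gm16351 are long. It further holds Gm45457, a gene of 3089 nt on the same strand whose cDNAs cannot be told apart from those of Sorbs2. It holds 11 coding transcripts of Sorbs2 with starts in 3 clusters, which lie 320119, 200104 and 169615 nt from the end of the gene. The covered stretch ran from 46713304 to 46916904, or 203601 nt, which was closest to the length from the second cluster. The 123.3 kb of the interval before it held 7 cDNAs in replicate 1, 20 in replicate 2 and 17 in the other libraries, a density of 0.0708 ± 0.0017 CPM per kb (SD, n = 2). With 0.5 of the median bin as the limit, the stretch began at 46853030 and shrank to 59965 nt, because low bins inside the gene then ended it. A limit of 0.1 gave 204629 nt.

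Within Sorbs2 the density then rose a further time. The steepest rise, found as the point with the largest ratio of the 5 kb after it to the 5 kb before it, lay at 46743686, which is 30382 nt from the 5′ edge. Replicate 1 had 9 cDNAs before it and 109 after it, replicate 2 had 34 and 340, and the other libraries had 8 and 107, so the step was 10.0-fold to 13.4-fold in the 3 sets. In the annotation the third cluster of starts, with 4 of the 11 transcripts, begins 30489 to 34193 nt after the second cluster. The stretch between the 5′ edge and the rise held 4.72 ± 0.410 CPM per kb, and the 173.2 kb after it held 18.1 ± 0.488 CPM per kb (SD, n = 2). Of the cDNAs of the covered stretch, 95.3% in replicate 1 and 96.0% in replicate 2 lay after the rise. The position of the rise was taken from the merged track, which contains these libraries, so its size is a description.

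Ldb3 and Fhl2 had no step of that size. The steepest rise of Ldb3 lay at 35392988, or 8881 nt from its 5′ edge, with 38 cDNAs before and 233 after in replicate 1 (6.13-fold) and 123 and 700 in replicate 2 (5.69-fold). The largest step in Fhl2 lay at 43198882, or 54987 nt from its 5′ edge, with 39 cDNAs before and 106 after in replicate 1 and 130 and 282 in replicate 2. Fhl2 has a second annotated start 33023 nt after the first. The part of Fhl2 before that distance held 57.1% of the cDNAs in replicate 1 and 55.7% in replicate 2, at 27.4 ± 1.01 CPM per kb, and the part after it held 16.0 ± 0.0242 CPM per kb (SD, n = 2).

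The 5′ part of Ldb3 carried most of its crosslinks. All 7 coding transcripts in the annotation start within 201 nt of each other, and the shortest spans 27392 nt. That length from the 5′ edge held 64.1% of the cDNAs of the covered stretch in replicate 1, 64.9% in replicate 2 and 71.7% in the other libraries. Its density was 43.5 ± 1.17 CPM per kb, and the rest of the gene held 18.6 ± 0.943 CPM per kb (SD, n = 2). In 5 equal sections of the covered stretch from 5′ to 3′, Ldb3 held 29.1 ± 1.64, 62.1 ± 4.09, 29.8 ± 0.432, 13.3 ± 0.172 and 13.2 ± 2.50 CPM per kb. The second section stood above the other 4 by more than the spread of the replicates, and the last pair did not differ beyond it. Between the replicates, the log2 ratio of replicate 2 over replicate 1 was below 0 beyond counting error in the last section, at -0.39 (95% interval -0.67 to -0.10), and barely so in the second, at -0.13.

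The other genes had other profiles. The section means of Sorbs2 rose from 5′ to 3′, with 10.3 ± 0.0925, 14.1 ± 0.456, 16.0 ± 1.05, 19.4 ± 0.738 and 20.5 ± 0.376 CPM per kb. The rise was not steady at finer scale. The 10 kb window from 46750001 held 197 ± 2.37 CPM, that from 46810001 58.4 ± 4.59 and that from 46830001 276 ± 12.7. The section means of Fhl2 declined slowly, with 24.6 ± 0.994, 25.6 ± 1.83, 21.9 ± 1.46, 17.1 ± 1.46 and 15.2 ± 1.28 CPM per kb (SD, n = 2 for each). Its first and second sections differed by less than their spread. The 5 fullest bins of 1 kb held 29.3% of the replicates' cDNAs in Ldb3, where they were 7.94% of the bins, 16.2% in Fhl2 (6.49% of the bins) and 8.93% in Sorbs2 (2.45%). These are unlike fractions of the bins, so the shares do not rank the genes by concentration. The fullest bin of Ldb3 held 440 cDNAs beside a median of 56, that of Fhl2 188 beside 56 and that of Sorbs2 218 beside 41.

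**Figure D2:**
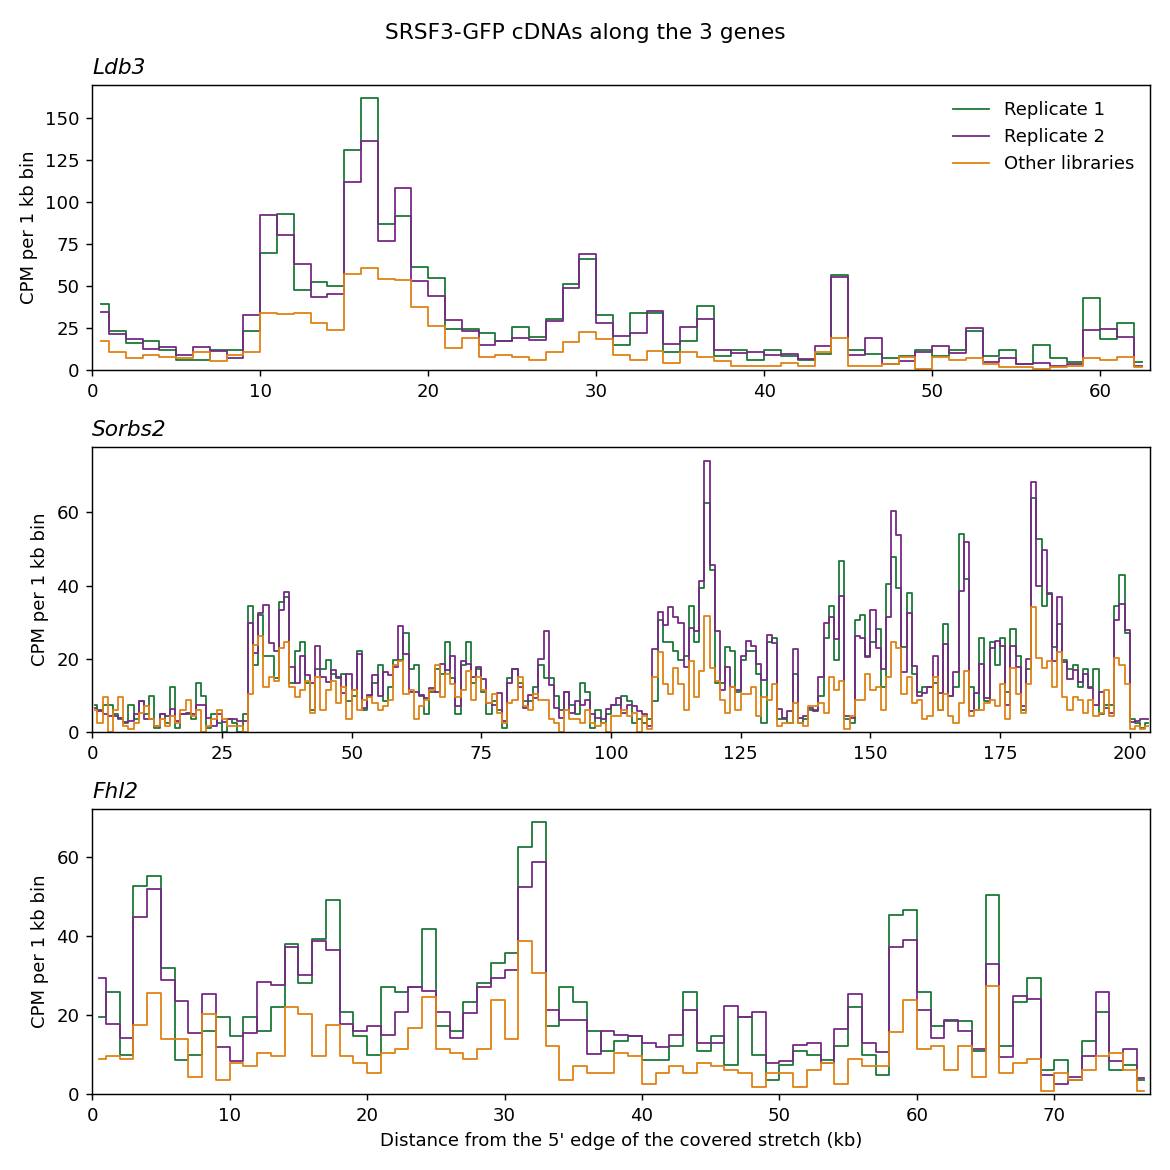
CPM per bin of 1 kb along each covered stretch, by distance from its 5′ edge in kb, for replicate 1, replicate 2 and the other libraries. Ldb3 has its main hill in the second of its 5 sections, Sorbs2 steps up about 30.38 kb from its 5′ edge, and the lines of the replicates run together with the other libraries mostly below.

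Within the covered stretches, few bins were empty, which the rule for their edges favours. Replicate 1 had a cDNA in 63 of 63 bins of 1 kb in Ldb3, 202 of 204 in Sorbs2 and 77 of 77 in Fhl2, and replicate 2 had one in all of them. The longest run without a position in the merged track was 315 nt in Ldb3, 419 nt in Sorbs2 and 531 nt in Fhl2. Most positions were seen once. In replicate 2, 87.5% of the Ldb3 positions, 91.7% of the Sorbs2 positions and 90.6% of the Fhl2 positions of the covered stretches held a single cDNA.

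A lower limit on the share of cDNAs outside exons came from lengths alone. The annotated exons of Ldb3 fill 6105 nt in 17 blocks, those of Sorbs2 10512 nt in 31 blocks and those of Fhl2 1897 nt in 7 blocks. Wherever they lie, they can touch at most 88 of the 627 bins of 100 nt of Ldb3, 148 of 2037 in Sorbs2 and 28 of 768 in Fhl2. Had the fullest bins all been exonic, at least 48.3% of the Ldb3 cDNAs in replicate 1 and 50.4% in replicate 2 would still lie outside exons. For Sorbs2 the limits were 66.5% and 69.3%, and for Fhl2 82.6% and 85.9%. These limits assume that the exon lengths of GENCODE M21 hold in mm9. Shares of exons and introns by position were not computed.

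The fullest 10 kb windows lay inside the covered stretches. In Ldb3 the window from 35380001 held 624 cDNAs in replicate 1, 1616 in replicate 2 and 440 in the other libraries, and at 741 ± 34.1 CPM (SD, n = 2) it ranked 17 of 268345 windows of the genome by the lower of its replicate values. Its neighbours from 35370001 and 35390001 followed at 297 ± 13.5 and 278 ± 16.4 CPM. In Sorbs2 the fullest windows were those from 46890001 (311 ± 0.320 CPM, rank 62), 46860001 (295 ± 8.39 CPM) and 46830001 (276 ± 12.7 CPM). In Fhl2 they were the adjacent windows from 43220001 (326 ± 29.5 CPM, rank 65), 43230001 (264 ± 17.5 CPM) and 43240001 (227 ± 18.0 CPM). The first window of Ldb3 thus stood apart from its neighbours by far more than the spread of the replicates, while those of Sorbs2 lay closer together.

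The profiles of the replicates ran in parallel. Over bins of 1 kb the Pearson correlation of log2(cDNAs + 1) was 0.919 in Ldb3 (63 bins), 0.893 in Sorbs2 (204 bins) and 0.838 in Fhl2 (77 bins), and the Spearman correlations were 0.918, 0.911 and 0.829. Bins of 1 gene share its libraries and its transcript, so these values describe the tracks and carry no p. The values moved with the bin size, from 0.867, 0.819 and 0.757 in bins of 500 nt to 0.963, 0.977 and 0.974 in bins of 5000 nt.

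**Figure D3:**
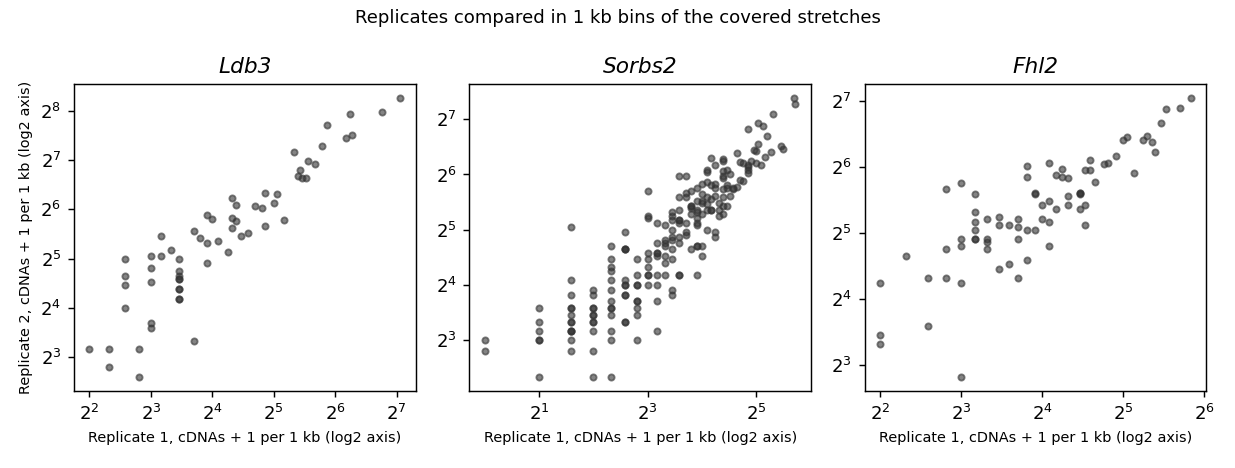
Replicate 2 against replicate 1 in bins of 1 kb of the covered stretches, as cDNAs + 1 on log2 axes; each point is 1 bin. The points form a single band in each gene, and it is tightest among the fullest bins.

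At finer scale, dense sites were taken from replicate 2 as runs of positions no more than 10 nt apart with at least 5 cDNAs, and were measured in the libraries not used to choose them. Ldb3 had 178 sites with a median width of 23.5 nt that filled 8.84% of its covered stretch and held 36.7% of the replicate 1 cDNAs (Wilson 95% interval 34.3 to 39.1). Sorbs2 had 253 sites that filled 3.02% of its stretch and held 17.3% of the replicate 1 cDNAs (16.0 to 18.8). Fhl2 had 116 sites that filled 3.24% and held 14.1% (12.3 to 16.1). In the other libraries the same sites held 33.9%, 12.5% and 10.0% of the cDNAs of the 3 genes. The share was several times the length covered in each gene and in both sets of libraries. Sites picked by density fall in the fuller parts of a gene, where all libraries hold more cDNAs. No local baseline was computed, so recurrence of single sites beyond these broad parts was not tested. Over the rest of the genome 12533 such sites held 7.19% of the replicate 1 cDNAs. The genes were chosen from these libraries and the length share of the rest was not computed, so this is no matched baseline. The share depends strongly on how a site is defined and ranged in Ldb3 from 21.5% with a gap of 5 nt to 61.6% with a gap of 25 nt, and it was 11.1% when sites of the shallower replicate 1 were measured in replicate 2.

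The 3 fullest sites of each gene in replicate 2 were read in the libraries not used to find them. In Ldb3 the 180 nt from 35386241 to 35386420 held 79 cDNAs in replicate 2, 33 in replicate 1 and 15 in the other libraries. The next, from 35357415 to 35357618 and from 35391721 to 35391871, held 78, 24 and 9 and 73, 23 and 6. In Sorbs2 the 151 nt from 46870524 to 46870674 held 53 cDNAs in replicate 2, 11 in replicate 1 and 4 in the other libraries. The next, from 46868197 to 46868313, held 51, 6 and 5. The site from 46744120 to 46744205, which lies just after the steepest rise, held 33, 12 and 9. In Fhl2 the 94 nt from 43221637 to 43221730 held 21 cDNAs in replicate 2, 8 in replicate 1 and 1 in the other libraries. The others, from 43221396 to 43221407 and from 43222058 to 43222102, held 18, 2 and 5 and 18, 7 and 3. All 9 sites had cDNAs in every set of libraries, a count that does not account for how densely the genes are covered.

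Single nucleotides rarely stood out. The fullest pair was in Ldb3, where the adjacent positions 35385003 and 35385004 together held 17 cDNAs in replicate 1, 15 in replicate 2 and 3 in the other libraries. That was 1.10% of the Ldb3 cDNAs in replicate 1 (Wilson 95% interval 0.685 to 1.75) and 0.368% in replicate 2 (0.223 to 0.606), so the pair took a larger share in replicate 1. In the rest of Ldb3, the positions 35384943, 35391844 and 35391634 held 2, 3 and 3 cDNAs in replicate 1 and 7, 5 and 4 in replicate 2. In Sorbs2 the position 46833940 held 3 cDNAs in each replicate. The positions 46895000, 46881765 and 46895496 held 2 each in replicate 1 and 5, 4 and 4 in replicate 2, and 46861034 held 1 and 7. In Fhl2 the position 43188576 held 4 and 5 cDNAs and 43209937 held 3 and 5, while 43188151, 43228912 and 43195692 held 2, 1 and 1 in replicate 1 and 3, 3 and 4 in replicate 2.

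Recurrence was counted as the positions of replicate 1 that replicate 2 listed at the same nucleotide and strand. For Ldb3 306 of 1425 positions recurred, or 21.5% (Wilson 95% interval 19.4 to 23.7). For Sorbs2 347 of 2525 recurred, or 13.7% (12.5 to 15.1), and for Fhl2 165 of 1256, or 13.1% (11.4 to 15.1). Over the whole genome the share was 5.02%. Among positions with 2 cDNAs in replicate 1, 37.0% recurred in Ldb3 (27.8 to 47.2), 30.7% in Sorbs2 (22.0 to 41.0) and 32.1% in Fhl2 (21.1 to 45.5). Over the genome 24.2% of that class did, and only the Ldb3 interval lay wholly above it. Positions with 3 or more cDNAs had lower shares than the genome's 90.3%. In Ldb3 9 of 12 recurred, or 75.0% (46.8 to 91.1), and in Sorbs2 6 of 9, or 66.7% (35.4 to 87.9). In Fhl2 it was 2 of 4, or 50% (15.0 to 85.0). In this last class only the Sorbs2 and Fhl2 intervals lay wholly below the genome's share, and few positions stand behind them. The class has no upper limit, and in replicate 1 no position of the 3 genes held more than 9 cDNAs. Dense coverage alone raises the share over all positions, since replicate 2 listed 5.56% of all nucleotides of the covered stretch of Ldb3, 3.35% of those of Sorbs2 and 4.17% of those of Fhl2.

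The other libraries of the merged track held fewer crosslinks in all 3 genes. Ldb3 had 961 cDNAs there (844 CPM, exact 95% Poisson interval 792 to 899), Sorbs2 2112 (1855 CPM, 1777 to 1936) and Fhl2 907 (797 CPM, 746 to 850). Against the sum of the replicates this was -1.12 on the log2 scale for Ldb3 (95% interval -1.22 to -1.02), -0.83 for Sorbs2 (-0.90 to -0.77) and -0.99 for Fhl2 (-1.10 to -0.89). These libraries gave 27.1% of the merged track as a whole but 14.6% of its Ldb3 cDNAs, 17.2% of its Sorbs2 cDNAs and 15.7% of its Fhl2 cDNAs. The genes were chosen with the replicates' values in view, so the direction is a description.

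In 10 kb windows the other libraries were compared with the sum of the replicates by the same exact binomial test, over the 21841 windows with at least 50 cDNAs in the merged track. The test called 6083 windows, or 27.9%, at a 5% false discovery rate, of which 2923, or 13.4% of those tested, were lower in the other libraries and 3160, or 14.5%, were higher. Of the 36 windows in the 3 genes, 31 were called lower and 0 higher, with a median log2 difference of -1.17 in Ldb3, -0.86 in Sorbs2 and -1.0 in Fhl2, beside -0.12 over all windows tested. All 7 windows of Ldb3 and all 8 of Fhl2 were called, with log2 differences from -1.69 to -0.92 and from -1.43 to -0.76. Of the 21 windows of Sorbs2, 16 were called. Without replicate 2 the test called 2709 of 7178 windows of the genome, or 37.7%, and 31 of the 36 windows of the 3 genes as lower. The fullest window of Ldb3, from 35380001, had a log2 difference of -0.92. The genes were chosen from the replicates' values, which this test uses, so the calls in them are a description. Fuller windows were also called more often, at 45.7% of the 7660 windows with at least 100 cDNAs, in any direction. The 3 libraries have no labels, so what sets them apart cannot be told from these tracks.

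The 5 windows of Sorbs2 that were not called lay in the 5′ part of its covered stretch. The window from 46710001, which contains the 5′ edge, held 32 cDNAs in replicate 1, 74 in replicate 2 and 41 in the other libraries, a log2 difference of 0.06. Those from 46720001 and 46730001 followed at -0.50 and -0.18, and those from 46780001 and 46790001 at -0.34 and -0.38. By section, the other libraries stood at -0.49 (95% interval -0.67 to -0.32) and -0.49 (-0.64 to -0.34) in the first pair of Sorbs2 sections, and at -0.96, -1.10 and -1.02 in the rest, with intervals that did not overlap the first pair. In Ldb3 the first and second sections stood at -1.05 (-1.27 to -0.83) and -0.90 (-1.05 to -0.76), and the last 3 at -1.46 (-1.71 to -1.22), -1.41 (-1.78 to -1.05) and -1.46 (-1.86 to -1.09). The interval of the first section overlapped those of all the last 3. Fhl2 stayed between -1.20 and -0.86. The difference between sections was not tested beyond these counting intervals.

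**Figure D4:**
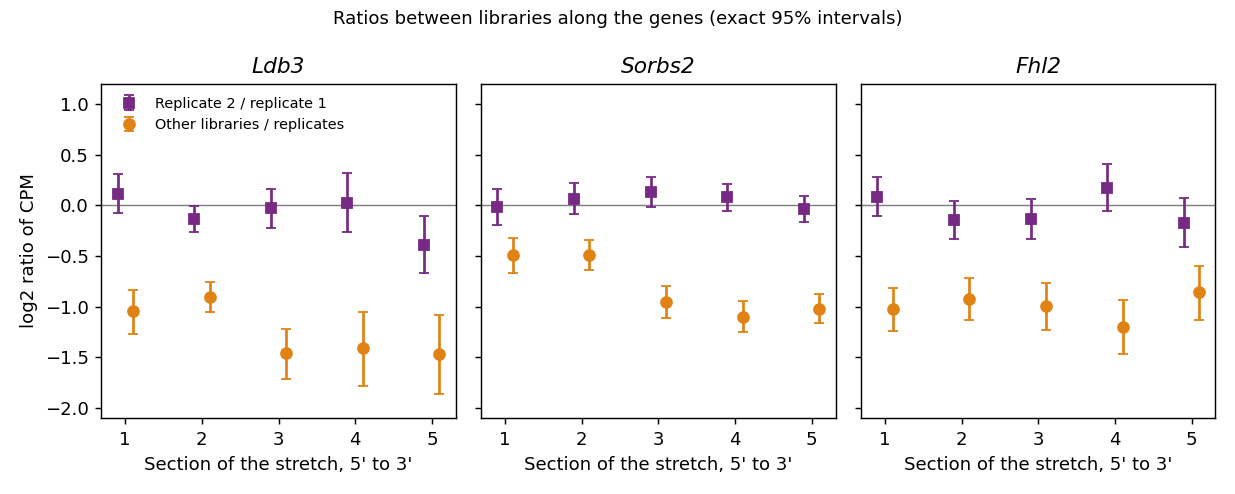
The log2 ratio of CPM in each of 5 equal sections of the covered stretch, 5′ to 3′, for replicate 2 over replicate 1 (squares) and for the other libraries over the sum of the replicates (circles), with exact 95% intervals. The circles lie below 0 in every section and are nearest to 0, at -0.49, in the first and second sections of Sorbs2, while all but 2 squares have an interval that contains 0.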

How the data were processed

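Only the 2 iCLIP replicates and the merged track were used. The authors deposited a signed score per nucleotide. Its size counts cDNAs and its sign gives the strand, per the file headers. Positions are on mm9 with annotation Ensembl 59, per the file headers, and reads were mapped with Bowtie 0.10.1, per the submitters' processing notes. The handling of duplicate cDNAs and multiple matches was not given in the sources used here.

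Scores were summed per interval and divided by each library's total, per 1000000 cDNAs. The other libraries are the merged track minus both replicates. Windows were tested with two-sided exact binomial tests (scipy 1.17.1). Benjamini-Hochberg adjustment ran over all windows of the genome with at least 50 cDNAs in the libraries compared. Intervals are exact Poisson, exact binomial or Wilson (statsmodels 0.14.6 for Wilson). On simulated data for the 13920 windows compared between the replicates, the test called 90.4% of the 4-fold and 23.3% of the 2-fold changes.

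Named were the 3 fullest 10 kb windows and the 5 fullest nucleotides of each gene, both by the lower replicate CPM. The windows past the threshold were named too, and are given as counts and ranges where there were many. The members, lists and rules were chosen with earlier results of these data known. The covered stretch, steepest rise, exon limit, motifs and sites named individually were added after the tracks were seen. Exon and intron shares, other Z-disc genes and cell type markers were not computed, because the annotations used here (GENCODE M21, RefSeq) are on another build.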

Additional observations from a re-analysis of the deposited data

Results flagged for a closer look

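The merged track held signal in the 3 genes from libraries that the labels do not describe, and it is listed for that reason. It came to 961 cDNAs in Ldb3, 2112 in Sorbs2 and 907 in Fhl2, where a count of 0 would have allowed 3. Most of it lay at nucleotides that neither replicate listed: 693 of the 961 cDNAs in Ldb3, 1801 of 2112 in Sorbs2 and 766 of 907 in Fhl2. These were 665 positions in Ldb3, or 12.6% of its positions in the merged track, 1756 in Sorbs2 (16.3%) and 739 in Fhl2 (14.7%). The matching share over the whole genome was not computed. Positions that do not recur are usual in these tracks: over the genome, replicate 2 listed 5.02% of the replicate 1 positions. The counts are therefore not a trait of these genes.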

How the results depend on the processing

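No paired analysis was possible because the iCLIP samples form 1 group and the heart samples that share their replicate numbers were not analysed here. Without the mitochondrial genome and the 10 highest windows in the totals, the levels were 27.7 CPM per kb in Ldb3, 10.4 in Sorbs2 and 20.3 in Fhl2, and cut to the middle 95% of cDNAs they were 29.9, 17.0 and 21.3. With each position counted once Ldb3 fell to 25.1. Single replicates gave 25.8 to 27.2, 9.79 to 10.1 and 19.2 to 19.7. The order of the genes held in all of these. Counting each position once raised the windows that differed between the replicates from 13 to 23, with 0 in the 3 genes. Windows that differed in the other libraries numbered 3504 of 7660 tested (45.7%) with at least 100 cDNAs, 5191 of 16671 (31.1%) without replicate 1 and 2709 of 7178 (37.7%) without replicate 2, so the counts fell and the shares rose from 27.9%. Under each of these settings 31 or 32 of the 36 windows of the 3 genes were lower, while the shares over the genome are for any direction. With at least 20 cDNAs the count instead rose to 8632 of 48327 windows and the share fell to 17.9%. In that setting 31 of the 37 tested windows of the 3 genes were lower. The share of cDNAs in dense sites of Ldb3, Sorbs2 and Fhl2 was 21.5%, 8.99% and 5.76% with a gap of 5 nt, 61.6%, 36.9% and 42.7% with 25 nt, 42.7%, 23.1% and 22.1% with at least 3 cDNAs, 27.6%, 10.5% and 6.44% with at least 10, and 11.1%, 2.98% and 1.95% with the roles of the replicates exchanged. Correlations along the genes were 0.867, 0.819 and 0.757 in bins of 500 nt and 0.963, 0.977 and 0.974 in bins of 5000 nt. Beyond the exchange of replicates, where fewer sites are found in the shallower library, the cause of these shifts was not tested. Depth limits the single nucleotides most, since few held more than 5 cDNAs in a replicate.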

Other observations

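Fhl2 was the 1 gene of the 3 with a share of opposite-strand cDNAs above 1% in each set of libraries, and these cDNAs lay mostly around its 5′ edge at 43253869. The plus-strand window from 43250001 held 16 cDNAs in replicate 1, 27 in replicate 2 and 6 in the other libraries. The signal went on beyond the interval, with 13, 44 and 12 cDNAs in the window from 43260001 and 17, 46 and 9 in the window from 43270001, while the window from 43240001, further inside the gene, held 0, 4 and 3. On the gene strand the 10 kb upstream of the interval held 0 cDNAs in all of these libraries. The choice of these windows followed their values. GENCODE M21 holds Gm8210 on the strand opposite Fhl2, and where it lies beside these windows was not examined.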
